A study of Mus musculus with 2 samples.

Results

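The cells described here are those that the authors' cell-cycle position puts between 0.5π and 0.75π on the circle, a stretch called the S arc below. There were 1233 such cells among the 12805 of the series, or 9.63%. The 95% limits of that share were 9.12% and 10.2% by the exact binomial method, and these and the later limits cover counting error alone. Culture 1 gave 709 of its 5748 cells (12.3%, interval 11.5% to 13.2%) and culture 2 gave 524 of its 7057 cells (7.43%, interval 6.82% to 8.06%). The position is an angle on a map drawn from the expression of cell-cycle genes, so the levels of those genes chose the cells. Their values are therefore given as a description, within each culture, and no p-value is attached to any of them.

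The series holds 2 replicate cultures of 1 condition: cortical neurospheres, floating clusters of dividing neural progenitors, made from wild-type C57BL/6 embryos by taking the dorsal telencephalon at embryonic day 14.5. Both were kept in serum-free medium with EGF and bFGF, each at 10 ng/ml, and were profiled by droplet RNA sequencing of transcript 3' ends. The labels do not state which embryos or litters each culture came from, and dispersed neurospheres no longer hold the layers of the cortex. Levels are means over cells of log2(value + 1), where the value is the authors' depth-normalized expression, and a level of a culture is a mean over its cells of the arc in question.

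In S phase a cell copies its genome once. The MCM2-7 helicase, loaded on origins in G1, is fired by kinases and unwinds DNA, the clamp PCNA holds polymerases on the template, ribonucleotide reductase and thymidylate synthase supply deoxynucleotides, and chaperones set histones on the new strands. Genes of this machinery are well-known targets of the E2F factors, while many genes of mitosis carry CHR elements, through which the DREAM and MuvB complexes act, together with CCAAT boxes.

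The promoter sequences below are shown because both kinds of gene meet in the S arc. *Hells*, *Pcna* and *Rpa2* are 3 of the 4 genes used as markers of these cells, *Pclaf* had the largest difference from the arc before, and *Top2a* was among the genes with the largest differences on either side. Each line gives the 250 bases before the start of transcription, 5′ to 3′ on the strand of the gene, from RefSeq on GRCm38.p6. Capitals mark the letters searched on both strands, which are TTTGGCGC, TTTGCCGC, TTTCGCGC and TTTCCCGC for E2F, TTTGAA and TTCGAA for CHR, and CCAAT.
Hells, chr19:38930740-38930989, plus strand: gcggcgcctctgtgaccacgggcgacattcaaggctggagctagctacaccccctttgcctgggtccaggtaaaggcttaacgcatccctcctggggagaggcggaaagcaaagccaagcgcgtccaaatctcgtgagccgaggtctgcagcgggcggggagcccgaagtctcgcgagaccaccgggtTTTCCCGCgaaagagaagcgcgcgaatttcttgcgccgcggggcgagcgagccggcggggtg
Pcna, chr2:132253181-132253430, minus strand: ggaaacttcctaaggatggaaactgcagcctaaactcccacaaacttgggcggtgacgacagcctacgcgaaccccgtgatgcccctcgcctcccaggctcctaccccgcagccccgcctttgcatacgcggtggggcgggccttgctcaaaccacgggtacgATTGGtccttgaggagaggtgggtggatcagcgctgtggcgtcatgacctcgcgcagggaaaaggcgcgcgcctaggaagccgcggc
Rpa2, chr4:132768110-132768359, plus strand: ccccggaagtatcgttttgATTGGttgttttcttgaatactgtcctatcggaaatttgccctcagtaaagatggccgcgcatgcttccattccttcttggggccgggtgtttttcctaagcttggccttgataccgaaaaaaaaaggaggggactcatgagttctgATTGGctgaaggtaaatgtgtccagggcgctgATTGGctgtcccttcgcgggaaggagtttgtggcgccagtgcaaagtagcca
Pclaf, chr9:65890073-65890322, plus strand: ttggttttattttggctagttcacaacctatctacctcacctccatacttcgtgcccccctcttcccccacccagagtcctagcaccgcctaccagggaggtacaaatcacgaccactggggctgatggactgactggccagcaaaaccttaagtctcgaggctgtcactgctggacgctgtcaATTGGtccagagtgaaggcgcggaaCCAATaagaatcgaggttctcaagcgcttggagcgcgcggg
Top2a, chr11:99024190-99024439, minus strand: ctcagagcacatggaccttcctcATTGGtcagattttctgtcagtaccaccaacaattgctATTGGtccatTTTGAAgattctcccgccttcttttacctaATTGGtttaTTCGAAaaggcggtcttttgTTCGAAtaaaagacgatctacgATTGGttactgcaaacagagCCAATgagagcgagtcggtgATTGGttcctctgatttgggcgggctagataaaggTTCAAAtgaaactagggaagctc
The *Hells* stretch holds 1 E2F match, TTTCCCGC, whose first base lies 62 bases before the start. The *Top2a* stretch holds 4 CHR matches and 6 CCAAT matches, and the *Rpa2* stretch holds 3 CCAAT matches. The *Pcna*, *Rpa2* and *Pclaf* stretches hold CCAAT matches but no E2F or CHR match. *Tipin*, the fourth marker, is not in the table of promoters. These starts are those of RefSeq. The gene bounds given below are those of GENCODE, whose starts for *Hells*, *Pcna*, *Rpa2* and *Pclaf* lie further upstream, inside the printed stretches, and both CCAAT matches of *Pclaf* fall within the GENCODE gene.

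Over windows that reach from 250 bases before to 50 bases after the start, the letters were unevenly spread over the gene groups described below. E2F letters stood in 5.38% of the 6651 counted genes with a window and in 2.6% of all 27025 genes with one. They stood in 15 of the 52 genes with a window that were higher in the S arc than in the arc before (28.8%) and in 7 of the 68 that were lower than in the arc after (10.3%). CHR letters stood in 16.2% of the counted genes and 21.7% of all genes, in 46.2% of the genes higher than before and in 66.2% of those lower than after. The CCAAT shares were 43.3%, 41.1%, 78.8% and 75% in the same order. Of the MCM2-7 genes, 4 of the 5 with a window held E2F letters and 2 held CHR letters, while of 13 genes of mitotic cyclins and kinases 1 held E2F letters and 10 held CHR letters. A match is a string of letters and says nothing of binding, and groups picked by their levels were not tested for it.

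Whether these cells are in S phase was looked at first through the stages that 3 methods had given them in the deposited table. Seurat, which scores lists of S and G2M genes, staged 703 of the 709 cells of culture 1 (99.2%, exact interval 98.2% to 99.7%) and 519 of the 524 cells of culture 2 (99%, 97.8% to 99.7%) as S. Its remaining calls in the arc were 4 and 2 cells in G1, and 2 and 3 in G2M. Seurat's S share was 93.3% and 93.9% in the arc before and 60.2% and 63.9% in the arc after, so it was not particular to the S arc. SchwabeCC, which allows for stages in between, put most of the cells earlier: 460 cells of culture 1 (64.9%) and 330 of culture 2 (63.0%) were staged G1.S. Its G1.S share was 71.7% and 72.5% in the arc before and 22.5% and 22.9% in the arc after.

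Only 54 cells (7.62%, interval 5.77% to 9.82%) and 47 cells (8.97%, interval 6.66% to 11.7%) were staged S by SchwabeCC, and 185 and 141 had no stage. The rest were 10 and 5 cells staged M.G1 and 1 cell of culture 2 staged G2.M. Of all cells that SchwabeCC staged S, the S arc held 15.2% in culture 1 and 11% in culture 2, whereas the arc after it held 65.4% and 40.9%. Cyclone, which compares pairs of genes, staged 708 of 709 and 523 of 524 cells as G1, and 1 cell of each culture as S. Its G1 share was 100% in the arc before in both cultures, and 66.4% and 69.6% in the arc after. Over the whole series cyclone staged 133 cells of culture 1 and 56 of culture 2 as S. SchwabeCC and cyclone thus gave most of the cells a stage other than S, and the cells are called by their arc in what follows. Cyclone rarely used its S stage anywhere, and G1.S is a stage in between. These calls therefore do not decide whether the cells are in S phase. The Seurat stages and the marker genes below go with the label, but both are levels of cell-cycle genes in the same cells, as the position is, so neither is an independent check.

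**Figure D1:**
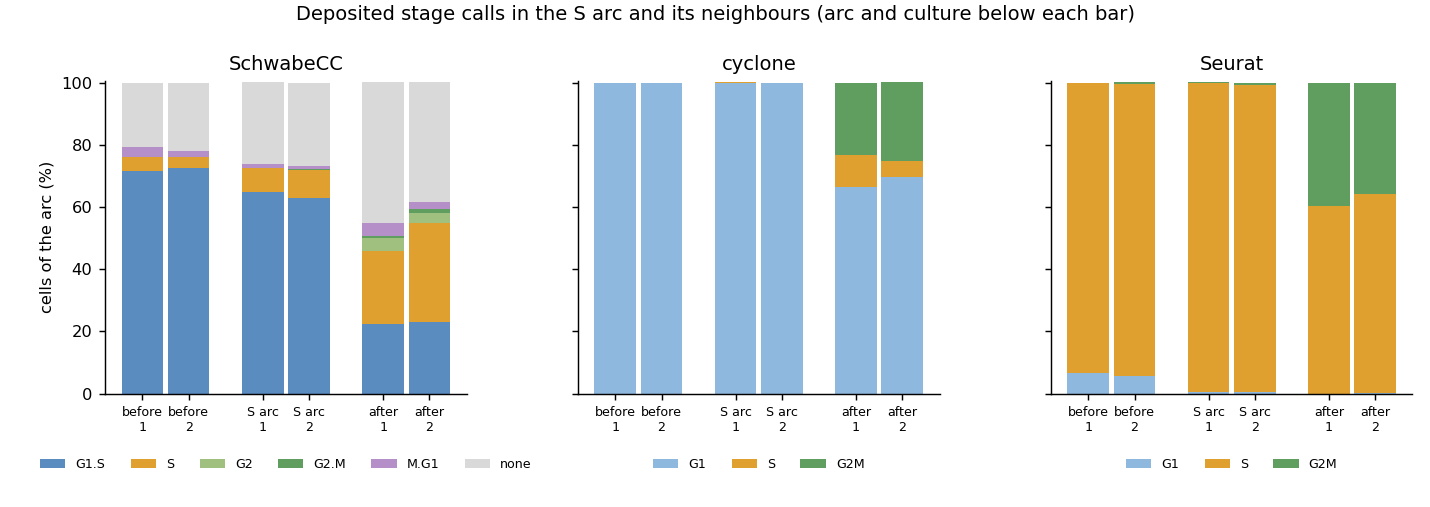
Stacked bars of the share of cells (%, vertical axis) with each deposited stage in the arc before, the S arc and the arc after, for culture 1 and culture 2, by SchwabeCC, cyclone and Seurat. Seurat staged 99.2% and 99% of S-arc cells as S, SchwabeCC staged 64.9% and 63.0% as G1.S, and cyclone staged 99.9% and 99.8% as G1.

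The neighbours used for comparison are the arcs of equal width on either side. The arc before, from 0.25π to 0.5π, held 375 cells of culture 1 and 408 of culture 2, and the arc after, from 0.75π to π, held 992 and 546. The median total UMIs per cell was 20253 in the S arc of culture 1, against 19169 before and 22967 after. In culture 2 it was 15727, against 14927 and 17148. The S arc thus had 1.06 and 1.05 times the UMIs of the arc before and 0.882 and 0.917 times those of the arc after, and its place between the neighbours was the same in both cultures. The position, the number of UMIs and the levels move together here, and the part of depth in the level differences was not tested beyond 2 alternatives, an RNA-per-cell scale and cells between the UMI quartiles of their culture, given in the closing section. Of 48 barcodes found in both libraries, 5 belonged to cells of the S arc, and none of these barcodes had both of its cells there.

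All 4 marker genes were far above their level in the arc from 1.75π to 2π, which held the most cells in both cultures and is called the distant arc here. *Tipin*, whose product protects stalled forks, had a mean of 2.16 in culture 1 (SD over cells 0.63) and 2.54 in culture 2 (SD 0.72). It stood at 0.40 and 0.45 in the distant arc. *Pcna*, the sliding clamp, had means of 2.53 and 2.58 against 0.69 and 0.69. *Hells*, a chromatin remodeller needed for DNA methylation, had 1.56 and 1.8 against 0.07 and 0.06, and *Rpa2*, a subunit of the single-strand binding complex, had 1.48 and 1.60 against 0.16 and 0.13.

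All 4 markers were above 0 in 81.5% of S-arc cells in culture 1 and 69.3% in culture 2, against 65.9% and 45.3% in the arc before and 78.5% and 56.2% in the arc after. No cell of these 3 arcs was without any of them. In the distant arc, all 4 were above 0 in 0.559% and 0.0635% of cells, at median depths of 18437 and 13991 UMIs, against 20253 and 15727 in the S arc. Cells could not be thinned to 1 depth, and the share of cells above 0 in the distant arc serves as the background. *Hells* was above 0 in 90.7% and 86.3% of S-arc cells against 7.55% and 4.32% of cells of the distant arc. The distance was smaller from the arcs that lie next to it.

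**Figure D2:**
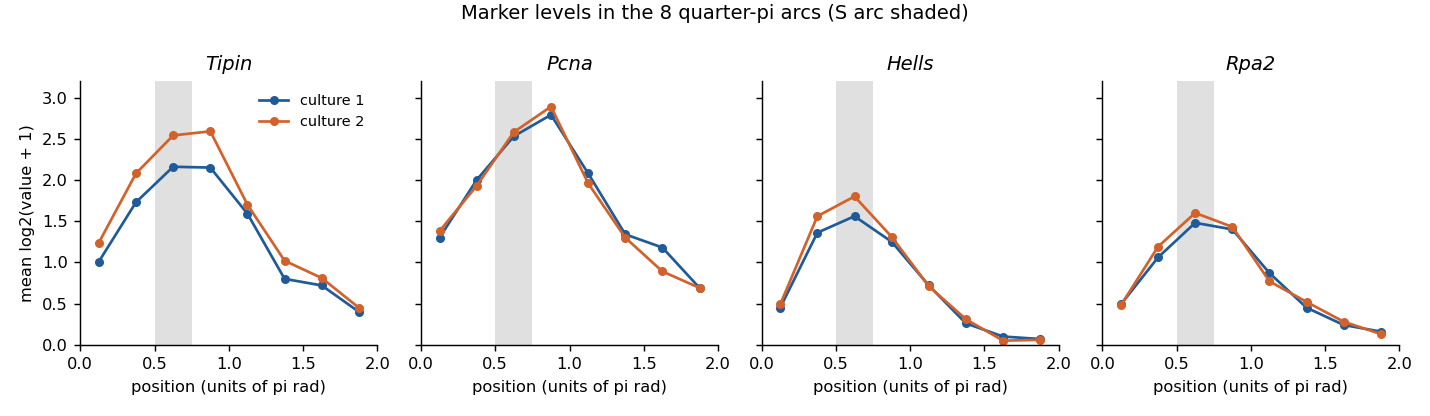
Mean log2(value + 1) of the 4 marker genes (vertical axis) in each of the 8 arcs of the circle, placed at the middle of the arc (horizontal axis, units of π rad), with 1 line for each culture and the S arc shaded. *Hells* and *Rpa2* are highest in the S arc in both cultures, *Pcna* is highest in the arc after (2.79 and 2.89), and *Tipin* is about level between these arcs.

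Against the arc before, all 4 markers were higher in the S arc: by 0.43 and 0.46 for *Tipin*, 0.52 and 0.66 for *Pcna*, 0.21 and 0.23 for *Hells*, and 0.42 and 0.41 for *Rpa2* in cultures 1 and 2. Against the arc after they parted. *Hells* was higher in the S arc by 0.32 and 0.49 and *Rpa2* by 0.09 and 0.17, while *Pcna* was lower by 0.27 and 0.31 (differences of -0.27 and -0.31). *Tipin* differed from the arc after by 0.0022 in culture 1 and by -0.05 in culture 2, so it does not tell these arcs apart. The order of the arcs was the same in both cultures for *Pcna*, *Hells* and *Rpa2*. For *Rpa2* the difference from the arc after over both cultures, 0.13, was 0.03 with all arcs moved 0.1 rad earlier, 0.23 with arcs moved later, 0.04 on an RNA-per-cell scale and 0.06 in cells with a SchwabeCC stage.

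Cells just inside and just outside the limits of the arc were compared next. Over the 50 cells just below 0.5π and the 50 just above it, *Pcna* averaged 2.13 and 2.38 in culture 1 and 2.27 and 2.26 in culture 2. At the other limit, the 50 cells below 0.75π and the 50 above it gave *Pcna* 2.67 and 2.68 in culture 1 and 2.88 and 2.90 in culture 2. *Top2a* there was 1.81 and 2.03 in culture 1 and 2.44 and 2.46 in culture 2. *Hells* was 1.28 below and 1.64 above that limit in culture 1 and 1.71 and 1.73 in culture 2. In culture 2 cells just inside and just outside were alike in these genes, and in culture 1 the steps were larger for *Pcna* at the first limit and for *Top2a* and *Hells* at the second. With the limits of the rule rounded to 3 decimals, 1232 cells are chosen.

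Genes were then compared over the whole table, counting the 8333 genes detected in at least 5% of the cells of each culture. A gene was called where its mean differed by at least 0.25 on the log2 scale, in the same direction, in both cultures. Against the arc before, 67 genes (0.804%) were higher in the S arc and 0 (0%) were lower. Against the arc after, 6 genes (0.072%) were higher and 82 (0.984%) were lower. No gene was higher than in both neighbours (0 of 8333, 0%) and none was lower than in both (0%). Since the position is built on such genes, these shares describe the map and are not evidence about it.

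Counted on the log2 of the mean value plus 0.01 in place of the mean log2 value, the split was 459 genes higher and 193 lower than before, and 348 higher and 378 lower than after, and 22 genes passed as higher than both neighbours and 15 as lower. This scale gives weight to rarely detected genes. It kept all 67, 6 and 82 genes of the main calls. The absence of a gene called above both neighbours is thus a statement about a difference of 0.25 on the main scale.

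Of the 67 genes higher than before, 32 were at the same time lower than after, or 47.8% of the 67 and 39.0% of the 82. Among the 67 were 22 of Seurat's S genes and 12 of its G2M genes, and 15 were in none of the lists used here, such as *Cenpq*, *Dnajc9*, *Ezh2*, *Lmnb1* and *Stmn1*. Among the 82 were 3 S genes, *Pcna*, *Rrm1* and *Rrm2*, and 29 G2M genes. Across the 8333 genes, the differences of the cultures had a Pearson correlation of 0.678 against the arc before and 0.796 against the arc after, with genes sharing cells and depth.

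**Figure D3:**
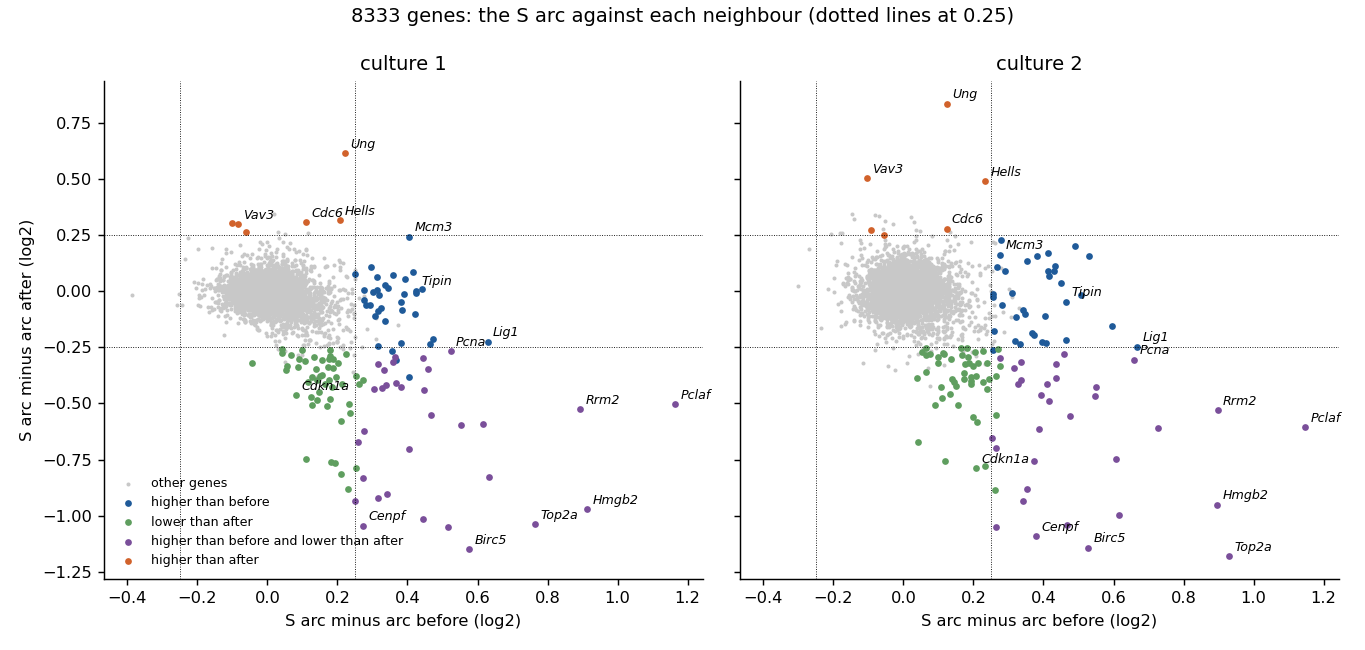
Each point is 1 of 8333 genes, with the S arc minus the arc before on the horizontal axis and the S arc minus the arc after on the vertical axis (log2), for culture 1 and culture 2; dotted lines mark 0.25. The upper right corner beyond both lines is empty, *Pclaf*, *Hmgb2*, *Rrm2* and *Top2a* lie lower right, and *Ung* is the highest point.

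The largest differences from the arc before belonged to genes of replication and of chromosome structure. *Pclaf*, a small partner of PCNA (chromosome 9, 65890237 to 65903266 on the plus strand of GRCm38), stood at 1.95, 3.11 and 3.61 in the arc before, the S arc and the arc after in culture 1, and at 2.21, 3.36 and 3.97 in culture 2. Its difference from the arc before was 1.17 and 1.15. *Hmgb2*, an abundant chromatin protein, followed with 0.91 and 0.90, then *Rrm2*, the small subunit of ribonucleotide reductase, with 0.89 and 0.90.

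*Top2a*, the topoisomerase that untangles replicated DNA, was higher by 0.76 and 0.93, *Lig1*, the ligase that joins Okazaki fragments, by 0.63 and 0.67, and *Smc2*, a core subunit of condensin, by 0.62 and 0.73. *Cdk1*, the kinase of mitotic entry, had 0.63 and 0.61 and *Birc5*, a passenger protein of chromosomes in mitosis, 0.58 and 0.53. All of these except *Lig1* were also called lower than in the arc after, and *Lig1* was lower there by 0.22 and 0.25 (differences of -0.22 and -0.25). The 2 cultures ranged within 0.17 of each other for these genes.

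The lists below are to be read beside all counted genes. Of these, 0.804% were called higher and 0% lower than before, and 0.072% higher and 0.984% lower than after. The helicase was the group with the most even pattern. All 6 genes of MCM2-7 were called higher than before, with medians of 0.33 and 0.36 beside 0.00088 and 0.0019 over all counted genes. *Mcm6* stood at 1.19, 1.54 and 1.52 in the arc before, the S arc and the arc after of culture 1, and at 1.03, 1.48 and 1.44 in culture 2. None was called against the arc after, where the medians were 0.04 and 0.10 and 4 of the 6 were above it in both cultures. *Mcm3* differed most, standing at 1.29, 1.70 and 1.45 in culture 1 and at 1.3, 1.58 and 1.42 in culture 2.

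Among genes that license and fire origins, 3 of 20 counted were higher than before, beside 0.804% of all counted genes. They were *Gins2* and *Cdc45*, parts of the active helicase, and *Gmnn*, the inhibitor of a further round of licensing. *Gmnn* stood at 0.86, 1.32 and 1.56 in culture 1 and 0.91, 1.5 and 1.66 in culture 2. *Cdc6*, a loader of the helicase, went the other way from the arc after, with 0.53, 0.64 and 0.33 in culture 1 and 0.45, 0.58 and 0.30 in culture 2, and was called higher in the S arc than after. *Dbf4*, the activator of the firing kinase, was the 1 gene of the list called lower than after (-0.29 and -0.25). Of the origin recognition complex, *Orc6* stood at 1.48, 1.72 and 1.71 and at 1.41, 1.72 and 1.71, and *Orc2*, *Orc3*, *Orc4* and *Orc5* differed from either neighbour by at most 0.11.

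Of the genes of the fork, 9 of 28 were called higher than before and all 28 were above it in both cultures, beside 2612 of all 8333 counted genes, with medians of 0.22 and 0.19. The called ones were *Pcna*, *Pclaf*, *Lig1*, *Rpa2*, *Pold1* of polymerase delta, *Prim1* of primase, and the clamp loader genes *Rfc1*, *Rfc2* and *Rfc4*. *Rfc4* stood at 0.93, 1.31 and 1.54 in culture 1 and at 0.87, 1.24 and 1.44 in culture 2. Against the arc after, 20 of the 28 were lower in both cultures, beside 2946 of all 8333 counted genes, and 2 of them were lower by 0.25 or more (*Pcna* and *Pclaf*). The catalytic gene of polymerase epsilon, *Pole*, was low in each arc, at 0.20 and 0.21 in the S arc against 0.13 and 0.14 before.

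Genes that guard the fork or the S checkpoint gave 4 of 15 higher than before, beside 0.804% of all counted genes, and 0 called against the arc after. *Clspn*, a mediator of the checkpoint kinase, stood at 0.64, 1.08 and 1.07 in culture 1 and 0.57, 1.07 and 1.09 in culture 2. The others called were *Tipin*, *Uhrf1* and *Usp1*, the deubiquitinase of PCNA. Of the checkpoint kinases, *Chek1* stood at 0.37, 0.49 and 0.39 in culture 1 and at 0.32, 0.40 and 0.34 in culture 2, above both neighbours by less than the threshold. *Atr* stood at 0.14, 0.11 and 0.14 in culture 1 and at 0.09, 0.14 and 0.10 in culture 2, in opposite directions.

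Of 15 genes of nucleotide supply, 6 were called higher than before, among them *Rrm2*, *Rrm1*, *Tk1*, *Tyms* and *Dut*, and 4 of these lower than after (*Rrm2*, *Rrm1*, *Tk1* and *Dut*). The shares over all counted genes were 0.804% and 0.984%. *Tk1*, thymidine kinase, stood at 0.39, 0.86 and 1.41 in culture 1 and at 0.46, 1.01 and 1.44 in culture 2. *Rrm2* stood at 1.76, 2.65 and 3.17 in culture 1 and at 1.60, 2.49 and 3.02 in culture 2. The genes of purine synthesis on the same list, *Atic*, *Gart*, *Paics* and *Ppat*, were not called against either neighbour.

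Of 6 genes that keep up DNA methylation, *Uhrf1*, which reads hemimethylated sites, and *Dnmt1*, the maintenance methyltransferase, were called higher than before, and *Hells* higher than after. *Dnmt1* stood at 0.87, 1.19 and 1.28 in culture 1 and 0.94, 1.20 and 1.46 in culture 2. Among 11 genes of mismatch and base excision repair, 0 were called against the arc before and 1, *Ung*, was called against the arc after. *Ung*, the glycosylase that removes uracil from DNA (chromosome 5, 114130386 to 114139323 on the plus strand), stood at 1.07, 1.29 and 0.67 in culture 1 and at 1.32, 1.45 and 0.61 in culture 2, the largest excess over the arc after of any counted gene (0.62 and 0.84). *Exo1* stood at 0.36, 0.61 and 0.51 and at 0.38, 0.60 and 0.48.

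Of 27 homologous recombination and Fanconi genes, 15 passed the detection limit, with a median level of 0.32 in the S arc of culture 1 and 0.35 in culture 2. *Rad51ap1* was the 1 called higher than before (0.29 and 0.53). Of 16 histone chaperone genes, 5 were called higher than before, beside 0.804% of all counted genes: *Asf1b*, *Chaf1b* of the chromatin assembly factor, *Nasp*, *Hat1* and *Dek*. *Dek* was also called lower than after, and *Chaf1a* had an excess over both neighbours in both cultures (0.21 and 0.26 against before, 0.09 and 0.22 against after).

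Of 5 linker and core histone genes that were counted, 0 were called against the arc before and 1, *H3f3b*, was lower than after (-0.47 and -0.46). The other 16 genes of that list are not analysed here. The cohesin list gave *Esco2*, the acetyltransferase that closes cohesin on sisters, as higher than before (0.33 and 0.39), and *Esco2* and *Rad21* as lower than after. Its other 12 counted genes were called against neither neighbour.

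Of 18 counted E2F and RB regulators only *E2f1*, an activator of S genes that is itself an E2F target, was called, with 0.44, 0.74 and 0.63 in culture 1 and 0.66, 0.94 and 0.71 in culture 2. *Mybl2* stood at 0.13, 0.33 and 0.39 and at 0.16, 0.47 and 0.50. Of 13 genes of G1 and S cyclins, kinases and inhibitors, *Ccne2*, a cyclin E, and *Fbxo5*, an inhibitor of the anaphase-promoting complex, were higher than before. The cyclin D gene *Ccnd1* stood at 4.24, 4.03 and 3.99 in culture 1 and at 4.17, 4.03 and 3.71 in culture 2. *Fbxo5* and the inhibitors *Cdkn1a* and *Cdkn2c* were lower than after. *Cdkn1a*, the p21 gene, stood at 2.14, 2.22 and 2.68 in culture 1 and at 1.86, 2.07 and 2.85 in culture 2, so the S arc was nearer to the arc before in both cultures. It was the 1 gene called among 13 counted p53 targets, whose medians against the arc after were -0.08 and -0.11. The medians of all counted genes were -0.0033 and -0.00098, and 0.984% of them were called lower than after. Of the 13 targets, 10 were below the arc after in both cultures and 1 above it, beside 2946 and 2532 of all 8333.

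Genes of mitosis were many among those below the arc after. Of 15 genes of mitotic cyclins and kinases, 12 were lower than after, with medians of -0.54 and -0.51, and 4 were already higher than before. The shares over all counted genes were 0.984% and 0.804%. *Birc5* stood at differences of -1.15 and -1.14 from the arc after, *Cenpf*, a kinetochore protein, at -1.05 and -1.09, *Cdca8* at -1.05 and -1.04, *Mki67*, the proliferation antigen Ki-67, at -1.01 and -1.0, and *Ube2c*, a ubiquitin-conjugating enzyme of anaphase, at -0.93 and -1.05. Of 11 genes of condensin, *Top2a* and Ki-67, 6 were called lower than after, beside 0.984% of all counted genes. All 11 were below the arc after in both cultures, beside 2946 of all 8333. Over Seurat's 48 counted G2M genes, all 48 were below the arc after in both cultures, beside 2946 of all 8333 genes. Of the 48, 44 were above the arc before in both cultures, beside 2612 of all 8333. The median level of these G2M genes was 0.18, 0.39 and 0.86 in culture 1 and 0.20, 0.33 and 0.80 in culture 2.

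The 43 S genes of Seurat, by contrast, had medians of 0.71, 0.96 and 0.97 in culture 1 and 0.67, 0.97 and 0.88 in culture 2. Their median difference was 0.25 and 0.29 against the arc before and -0.02 and -0.01 against the arc after. Against the arc before, 40 of the 43 were higher in both cultures, beside 2612 of all 8333 genes. Against the arc after, 14 of the 43 were higher and 20 lower in both cultures, beside 2532 and 2946 of all 8333.

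Genes that came closest to being highest in the S arc were ranked by the smallest of their 4 differences from the neighbours. *Hells* led with 0.21, followed by *Mcm3* (0.16), *Aunip* (0.14), *Ung* (0.12) and *Nop56* (0.12). *E2f1*, *Cdc6*, *Exo1*, *Chaf1a* and *Rpa2* were among the first 15 as well. *Aunip*, in none of the lists, whose product binds Aurora A, was higher than before by 0.21 and 0.26 and higher than after by 0.14 and 0.21. Others outside the lists were *Arl6ip6*, *Gpr180*, *Amd1* of polyamine synthesis, *Timm8a1*, *Mybbp1a*, *Slfn9*, *Ebna1bp2*, *Aif1l* and *Ddx18*, each with a smallest difference of at least 0.07. *Nop56* and *Mybbp1a* act in the nucleolus, and of 14 ribosome biogenesis genes 13 were above the arc after in both cultures, beside 2532 of all 8333 genes, with medians of 0.09 and 0.07. None of the 14 reached 0.25, and 6 were above the arc before in both cultures, beside 2612 of all 8333. At the other end, no gene was lower than both neighbours by more than 0.07 in all 4 differences.

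Genes that were lower than before did not reach the threshold in both cultures. The nearest were *Mt2*, a metallothionein (-0.23 and -0.27), *Kdm5b* (-0.26 and -0.20), *Selenos* (-0.20 and -0.18), *Olig2*, a transcription factor of progenitors (-0.23 and -0.18), and *Rfx4* (-0.16 and -0.19). *Olig2* stood at 2.59, 2.37 and 2.13 in culture 1 and at 2.51, 2.34 and 2.08 in culture 2, lower in each arc than in the one before it. Besides *Ung*, *Hells* and *Cdc6*, the genes higher than after were *Vav3* (0.30 and 0.50), *Qk* (0.31 and 0.27) and *Fyn* (0.27 and 0.25). These last 3 are in no list, and each was slightly lower in the S arc than before in both cultures.

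The genes of the replication lists did not reach their highest level at 1 place. The maximum of each was read from a smooth line (Gaussian kernel with an SD of 0.03π) through all cells of a culture. Of the 131 counted genes of the 9 replication and repair lists, 20 had it inside the S arc in both cultures and 40 in 1 culture, while 45 had it in the arc after in both cultures and 0 in the arc before in both. Among the genes whose places are given here, the earliest were *Hells* at 0.59π and 0.55π (culture 1, then culture 2), *Cdc6* at 0.59π and 0.61π, and *Ung* at 0.61π and 0.57π. Others may lie as early: in the arc before, the S arc and the arc after, *Cdca7* stood at 0.84, 0.86 and 0.69 and at 0.85, 0.80 and 0.57.

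*Chaf1a* (0.65π and 0.60π), *Rpa2* (0.68π and 0.73π), *Exo1* (0.68π and 0.71π), *Mcm3* (0.71π and 0.74π) and *E2f1* (0.75π and 0.72π) came next. The median of the MCM2-7 genes was 0.71π and 0.73π. *Pcna*, *Pclaf* and *Rrm2* were highest at 0.90π in both cultures, *Lig1* at 0.91π and 0.90π, and *Tk1* at 0.95π and 0.89π, all in the arc after. *Top2a* was highest at 0.97π and 1.05π and the median of the mitotic cyclins and kinases lay at 1.13π and 1.12π. Neighbours in this order whose places differ by less than the cultures do cannot be ranked, such as *Hells*, *Cdc6* and *Ung*, but the step from these to *Pcna*, *Pclaf* and *Rrm2* exceeded the gap between the cultures for each of them. Low genes gave scattered places, for example *Atr* at 1.04π and 0.72π.

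**Figure D4:**
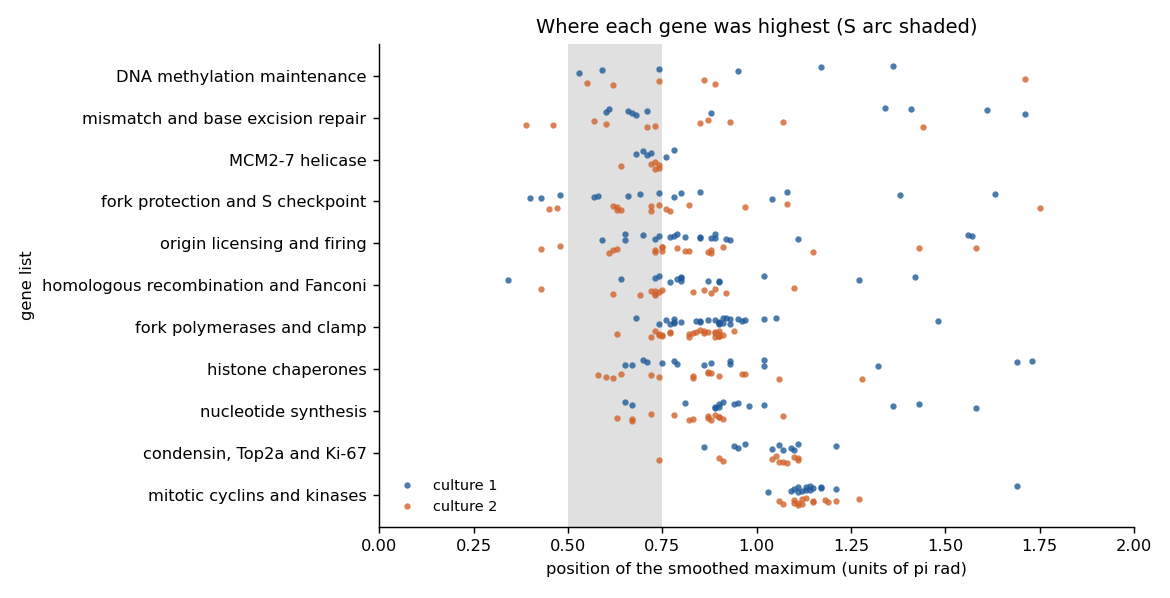
Place on the circle of the smoothed maximum (horizontal axis, units of π rad) of each counted gene of 11 gene lists (rows), with culture 1 and culture 2 in separate colours and the S arc shaded. The MCM2-7 genes gather near 0.71π and 0.73π, the fork and nucleotide genes mostly after the shaded arc, and the mitotic genes around 1.13π and 1.12π apart from *Pttg1* in culture 1 (1.69π).

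The arc was not uniform inside. It was cut into 4 parts of equal width, with 140, 178, 173 and 218 cells in culture 1 and 123, 129, 145 and 127 in culture 2. Between the first and the last part, 48 genes (0.576%) were higher in the last by at least 0.25 in both cultures and 2 (0.024%) were lower. The median level of Seurat's G2M genes was 0.25, 0.33, 0.38 and 0.49 over the parts in culture 1 and 0.24, 0.27, 0.37 and 0.47 in culture 2, a steady climb. The MCM2-7 median was 1.29 in the first part and 1.51 in the last in culture 1, and 1.26 and 1.51 in culture 2.

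*Top2a* differed most between the first and last part (0.91 and 1.21), then *Hmgb2* (0.76 and 0.77), *Birc5* (0.70 and 0.76) and *Mki67* (0.69 and 0.79). *Pclaf* was higher in the last part by 0.65 and 0.77 and *Rrm2* by 0.57 and 0.78. The 2 genes lower in the last part were *Ccnd1* (-0.36 and -0.34), which drives passage through G1, and *Rfx4* (-0.26 and -0.37). *Hells* (0.00013 and -0.10), *Ung* (-0.10 and -0.02) and *Cdc6* (-0.02 and 0.0030) were about level. Median UMIs were 19065 in the first part and 21664 in the last in culture 1, and 15363 and 16161 in culture 2. The share of these differences that goes with depth was not tested.

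**Figure D5:**
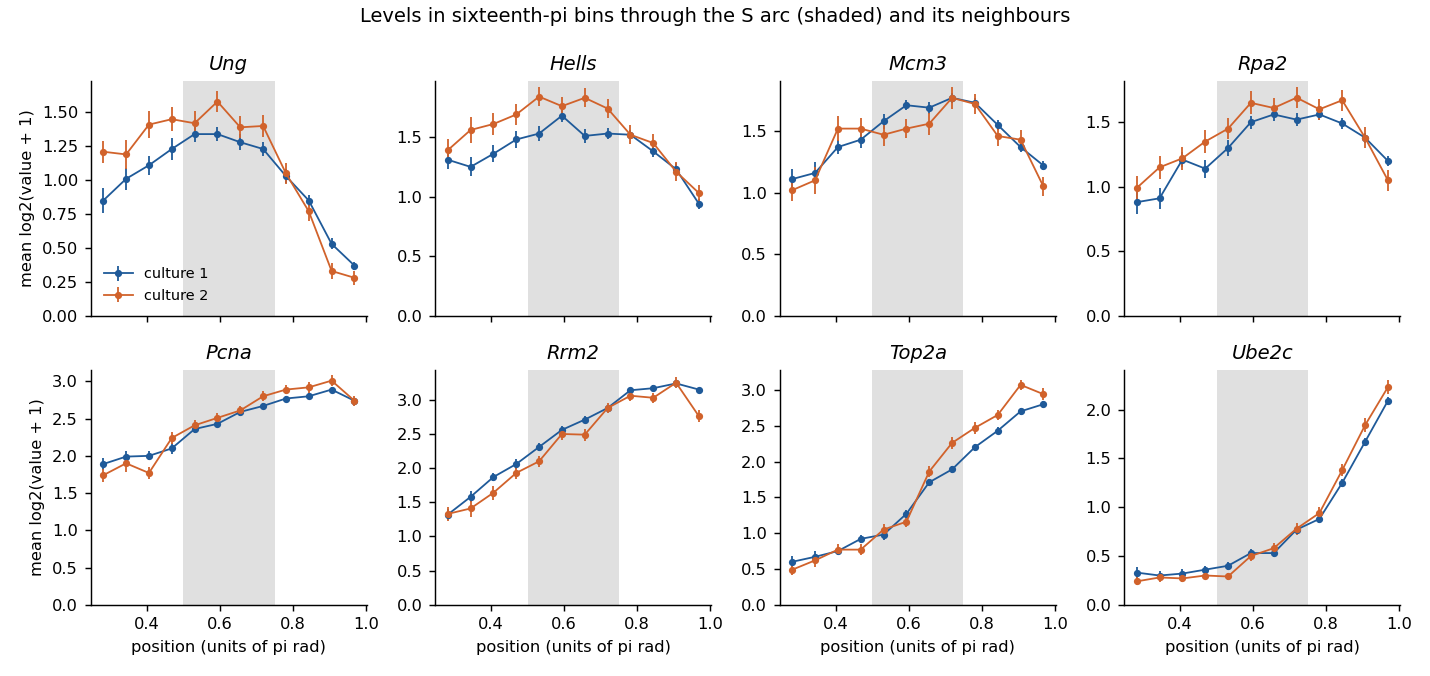
Mean log2(value + 1) of 8 genes (vertical axis) in bins of 0.0625π from 0.25π to π (horizontal axis, units of π rad) in each culture; bars are 1 SE over the cells of a bin, which are not replicates, and the S arc is shaded. *Ung* and *Hells* stay high through the arc and drop after it, *Pcna* and *Rrm2* climb through it, and *Top2a* and *Ube2c* climb on towards π.

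The few cells that SchwabeCC staged S inside the arc lay later in it than those staged G1.S. Their median position was 0.677π against 0.628π in culture 1 and 0.668π against 0.618π in culture 2. They had less *Ung* (1.08 against 1.37 and 1.0 against 1.61) and less *Cdc6* (0.39 against 0.67 and 0.44 against 0.62), and more *Top2a* (1.81 against 1.43 and 1.94 against 1.48). *Hells* was nearly the same (1.54 against 1.57 and 1.79 against 1.83). Cells without a stage lay between, at 0.655π and 0.650π. With 54 and 47 cells these are means of small groups, and SchwabeCC reads cell-cycle genes too.

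Markers of cell types were looked at over the same arcs. Under 1% of all genes were called in any of these comparisons (0.804%, 0%, 0.072% and 0.984%), so a count of 0 in a short list says little, and the levels are given. Of 12 counted radial glia markers, 0 were called, with medians of -0.02 and 0.0013 against the arc before and 0.03 and -0.01 against the arc after. *Fabp7*, a fatty-acid binding protein of radial glia, stood at 6.47, 6.43 and 6.34 in culture 1 and at 6.48, 6.46 and 6.37 in culture 2. *Nes*, which encodes nestin, stood at 2.35, 2.32 and 2.30 and at 2.28, 2.31 and 2.04. *Sox9* was 1.17, 1.05 and 0.86 in culture 1 and 0.98, 0.89 and 0.80 in culture 2. Others of the list were highest in the arc after. *Hes1* stood at 0.62, 0.64 and 0.67 and at 0.63, 0.61 and 0.66, and *Pax6* was low, at 0.18, 0.17 and 0.23 and at 0.19, 0.21 and 0.33. Of the 12, 4 were above and 3 below the arc after in both cultures, beside 2532 and 2946 of all 8333 genes.

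No marker of oligodendrocyte progenitors (4 counted of 9), neuroblasts (4 of 14), astroglia (7 of 11) or intermediate progenitors (1 of 7) was called against either neighbour, nor was the 1 immediate early gene counted of 13. Of the oligodendrocyte progenitor list, *Pdgfra* stood at 0.12 and 0.07 and *Sox10* at 0.04 and 0.03 in the S arc, while *Olig2* stood at 2.37 and 2.34 and *Bcan*, which encodes brevican, at 1.62 and 1.40. Of the neuroblast list, *Dcx* stood at 0.07 and 0.06, while *Stmn3* stood at 1.44 and 1.18 and *Elavl3* at 0.40 and 0.48. Both lists thus held members near 0 and members well above it. The median of the astroglial genes was 0.54, 0.53 and 0.53 in culture 1 and 0.47, 0.49 and 0.41 in culture 2. The 1 gene counted of the intermediate progenitor list was *Elavl2*, at 0.30, 0.37 and 0.45 and at 0.28, 0.43 and 0.45. No other gene of that list was in the table used here, so these values do not stand for the cell type. The 1 immediate early gene stood at 0.24, 0.21 and 0.27 and at 0.24, 0.28 and 0.29. No endothelial, microglial or mesenchymal marker of the lists was in the table used here, nor was *Sox2*.

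The cultures differed inside the S arc about as much as elsewhere. Of the 8333 genes, 143 (1.72%) were higher by at least 0.25 in the S arc of culture 1 and 19 (0.228%) in that of culture 2, beside 148 and 17 over all cells. With 1 library for each culture, culture and library cannot be told apart. The largest differences of culture 1 from culture 2 were in the ribosomal protein genes *Rps7* (-1.23) and *Rpl23a* (-1.06), with -1.26 and -1.15 over all cells. Ribosomal protein genes have many processed copies in the genome, and whether this bears on the differences was not tested. A large difference the other way was that of *Wdr89* (0.73, and 0.74 over all cells). Of the markers, *Tipin* was lower in the S arc of culture 1 by 0.38 (-0.38) although it was higher by 0.12 over all cells. The S arc was no exception, as *Tipin* was lower in culture 1 in each of the 8 arcs, down to 0.40 against 0.45 in the distant arc. Its value over all cells also holds the unequal spread of the cells over the arcs, given below. *Hells* stood at -0.23 in the S arc and 0.17 over all cells. Culture 1 had the larger share of its cells in the S arc and in the arc after (17.3% against 7.74%), and the arc from 1.75π to 2π held 31.1% of its cells against 44.6% in culture 2.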

How the data were processed

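Droplet RNA sequencing of 2 replicate neurosphere cultures was analysed from the authors' tables. The authors ran Alevin (Salmon 1.3.0) against GRCm38, keeping spliced and unspliced reads apart, took spliced counts as expression and removed cells with under 200 genes or over 3 MADs from the median in UMIs, genes, mitochondrial share or doublet score, so no doublet caller was run here. The deposited expression values are a signal on a linear scale, normalized by the authors for the depth of each cell, with sums of 11598 per cell in culture 1 and 11399 in culture 2 (medians). Counts could not be recovered from them, cells could not be thinned and no count model was run. Total UMIs are sums of estimated counts deposited by the authors. The other columns of the per-cell table, also deposited by the authors, hold the cell-cycle angle (rad) and stages by 3 methods. Which matrix gave the position is not stated in the sources used here. The sources disagree on the version of the droplet kit.

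Cells were put in arcs by the deposited position, and genes were compared on the mean of log2(value + 1) within each culture (pseudocount 1). A gene was called at a difference of at least 0.25 in both cultures, among 8333 of 10666 genes detected in at least 5% of cells of each culture. There is 1 condition and the cells were chosen by expression, so no test was run. Nothing says that the cultures came from different animals, so their spread may be technical. Symbols were found for 10662 genes, and gene positions are those of GENCODE vM21 on GRCm38. The 29 gene lists name 408 genes, of which 317 are in the table. Named genes are the markers, list members and the genes with the largest differences or excess, by fixed numbers. The 5 printed promoters were chosen after the values were seen. The members and lists were chosen with earlier results of these data known. The calls were tested on simulated data. Python 3.11.15, numpy 2.4.6, scipy 1.17.1, pandas 2.3.3 and matplotlib 3.10.9 were used. The alternatives moved the arcs, changed the pseudocount, scale, filter, threshold or cells, or left out a culture.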

Additional observations from a re-analysis of the deposited data

How the results depend on the processing

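Counts of called genes are given in the order higher and lower than the arc before, higher and lower than the arc after, and higher and lower than both, with 67, 0, 6, 82, 0 and 0 as reported. They were 120, 2, 16, 129, 1 and 0 with a pseudocount of 0.5, and 459, 193, 348, 378, 22 and 15 on the log2 of the mean plus 0.01. At a threshold of 0.15 there were 161, 6, 31, 155, 2 and 0, and at 0.5 there were 9, 0, 1, 26, 0 and 0. On an RNA-per-cell scale, 2 genes were higher and 138 lower than after, with the median of all genes against that arc at -0.04 in culture 1 and -0.02 in culture 2. Cells between the UMI quartiles gave 67, 1, 13 and 84 against the arcs before and after, the central 50% of each arc gave 10 higher than after, and arcs moved by 0.1 rad either way gave 1 gene higher than both. With either culture alone, 2 to 3 genes were lower than before and 10 to 21 higher than after, 10 without culture 2 and 21 without culture 1. Dropping the filter on low genes or the cells without a SchwabeCC stage left each count within 1.5 times of that reported.

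Between the first and last part of the arc (48 higher and 2 lower), a pseudocount of 0.5 gave 97 and 9, a threshold of 0.5 gave 11 and 0, and single cultures gave 77 to 116 and 17 to 39, with 116 and 39 without culture 1. These alternatives were chosen after seeing the data. A threshold is easier to meet in 1 culture than in both, and for the other changes the cause was not tested. The share of cells in the S arc was 9.11% and 10.1% with arcs moved earlier and later.

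Against the arc after, *Tipin* (-0.02 over both cultures) was 0.04 with arcs moved later by 0.1 rad and ran from -0.05 without culture 1 to 0.0022 without culture 2, and the median of Seurat's S genes (-0.01) was 0.04 with arcs moved later. Of 286 recomputed values of 11 genes and 2 lists, these 3 changed direction, 159 moved by less than the SD between the cultures and 124 by more in the same direction. For example, with arcs moved earlier and later, *Mcm3* against the arc after (0.20) was 0.07 and 0.34, *Ung* against the arc before (0.17) was 0.24 and 0.09, and *Cdc6* (0.12) was 0.14 and 0.06. Part of the 159 was fixed in advance. Leaving out a culture cannot move a gene by more than that SD, and dropping the filter does not alter a gene's own difference. Those settings therefore say nothing of stability for single genes. The log2 difference of median UMIs from the arc before (0.08) was 0.09 with arcs moved later, 0.06 with arcs moved earlier, 0.07 with the central 50% of each arc and 0.04 with the mean of log2 UMIs. No paired analysis was possible because no value comes from a test, and each difference between arcs was already taken within a culture.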
